A study of Rattus norvegicus with 15 samples.

Results

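1-Naphthol is naphthalene with 1 hydroxyl group, and 1,5-naphthalenediol (here the diol) carries that group and an additional one on the other ring. The comparison described here sets 3 arrays of rat hepatocytes exposed to the diol against 3 arrays of hepatocytes exposed to 1-naphthol, 6 of the 15 arrays of the study, chosen by their titles and not by any measured value. All groups were cryopreserved primary hepatocytes of male Wister rats (the labels' spelling), pre-cultured for 24 h and then exposed for 24 h. The diol, 1-naphthol, and the study's other compounds 2,7-naphthalenediol and naphthalene were each given at 30 µM, and a DMSO group served as the control. Each group had 3 arrays, described by the submitters as independent experiments. Whether these used separate animals or pooled cells, and the age of the rats, is not given in the sources used here, so the p-values measure the spread between these samples, which may be technical. The series was made to ask whether liver toxicity of naphthalene can be read across to its analogs, and the present comparison asks how the response differs where the structures differ by 1 hydroxyl group. It is the 1 pair of compounds compared here, at a matched dose and time.

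Liver cells dispose of naphthols mainly by conjugation to glucuronic acid, sulfate or glutathione. Dihydroxynaphthalenes and their oxidation products can react with protein thiols, and cells answer thiol-reactive compounds through NRF2, a transcription factor that turns on quinone reductases, glutathione transferases and aldo-keto reductases. Flat aromatic compounds can bind the aryl hydrocarbon receptor (AhR), whose textbook target is the cytochrome P450 gene Cyp1a1. Damaged proteins free the heat shock factor HSF1, which raises chaperones, and proteasomes clear proteins that cannot be refolded.

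Levels are log2 intensities relative to the array's own 75th percentile, differences are the diol minus 1-naphthol on the log2 scale (a difference of 1 is a change by a factor of 2), and errors of differences are standard errors of the limma model unless stated. The arrays lay on 2 slides. Slide 1 held diol replicates 1 and 2 with all DMSO and 2,7-naphthalenediol arrays, and slide 2 held diol replicate 3 with all 1-naphthol and naphthalene arrays. Only diol replicate 3 thus shared a slide with 1-naphthol. This array stood apart from its own group: its correlation with the other diol arrays was 0.9957 to 0.9959, against 0.9966 to 0.9972 with the 1-naphthol arrays, while diol replicates 1 and 2 correlated at 0.9978. A second fit over the 15 arrays therefore took the slide as a block. In it the difference comes from diol replicate 3 alone, 1 array against 3, and its adjusted p is given as that with the block. On the 6 arrays 58.1% to 61% of gene spots gave signal well above background, with 75th percentiles from 1897 to 2074 intensity units. All 13 hepatocyte markers were well above background on the 6 arrays, and their summed level, in multiples of the array's 75th percentile, was 511.9 to 548.4 with the diol and 522.6 to 543.6 with 1-naphthol. Of the markers of other liver cells, few passed the filter on dim signal: 7 of 12 for stellate cells (0.7917 to 0.8373 with the diol, 0.7715 to 0.8241 with 1-naphthol), 3 of 12 for macrophages (0.263 to 0.2696 and 0.2683 to 0.3044), 3 of 12 for endothelial cells (1.723 to 2.157 and 2.053 to 2.173), 3 of 10 for bile duct cells (0.5205 to 0.5369 and 0.4631 to 0.5553) and 2 of 12 for lymphocytes (0.0529 to 0.06913 and 0.05841 to 0.06603). Of these the stellate cell marker Reln alone passed the test (higher with the diol by 0.34, adjusted p = 0.03, and 0.19 with the block).

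The diol gave higher levels of a small set of genes than 1-naphthol, by factors of 2 or more. Among them were genes of detoxification and stress: the glutathione transferase Gstp1, the aldo-keto reductase Akr1b8 and the small heat shock protein Hspb1. Others in the set were genes of the cytoskeleton, of muscle and of epithelia. 1-Naphthol gave the higher level of the AhR target Aldh3a1 and of the transporter Slc43a3, whereas Cyp1a1 did not pass the test between them. Of 19803 genes tested, 1814 (9.16%) differed at an adjusted p under 0.05, 863 higher (4.36%) and 951 lower (4.8%) with the diol. Most differences were small: 1513 of the 1814 were under 0.5, while 43 genes were higher and 18 lower by at least 2-fold. With the slide as a block 371 genes (1.87%) passed, 190 higher (0.959%) and 181 lower (0.914%). Both fits passed 319 genes in the same direction (1.61%), 176 higher (0.889%) and 143 lower (0.722%), and of these 26 were higher and 1 was lower by 2-fold or more. On slide 2 fitted alone, where diol replicate 3 stands by itself, 13 genes were higher and 2 lower. Diol replicate 3 alone gave the same sign as the group for all 1814 genes, to which it contributes 1 of 3 values. The 3 diol values lay wholly outside the 3 values of 1-naphthol for 1795 of the 1814, and for 31.1% of all genes tested (14.4% with the diol higher and 16.7% lower). The counts fell when any of the arrays compared, other than diol replicate 3, was left out. Without diol replicate 1, 431 genes were higher and 357 lower. Without diol replicate 2 the counts were 441 and 407, and without diol replicate 3 they were 1254 and 2155. In that last setting the diol arrays all lay on slide 1 and the 1-naphthol arrays on slide 2, so compound and slide cannot be told apart. Without 1-naphthol replicates 1, 2 and 3 they were 462 and 376, 407 and 359, and 428 and 266. Higher and lower are used below of genes past the threshold in the fit without the block. Members of gene lists are counted in that fit, to be read against the 4.36% and 4.8% of all genes, and in both fits, to be read against 0.889% and 0.722%. Counts at an unadjusted p under 0.05 in limma are to be read against 11.8% higher and 16.1% lower over all genes. Counts of members above 0 are to be read against 8935 of all 19803 genes, or 9169 on diol replicate 3.

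**Figure D1:**
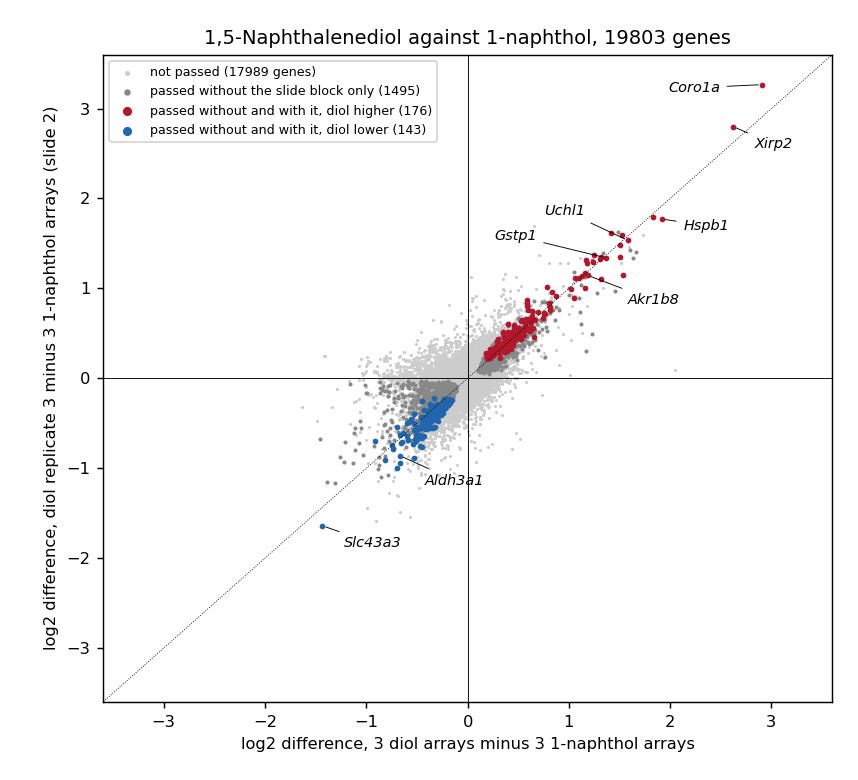
Log2 difference of each of the 19803 genes between all 3 diol and all 3 1-naphthol arrays (horizontal axis) and between diol replicate 3 and the 3 1-naphthol arrays on the same slide (vertical axis). Red and blue points are the 176 higher and 143 lower genes that passed without and with the slide as a block, dark grey points the 1495 that passed only without it, and among the red and blue points Coro1a, Xirp2 and Hspb1 lie farthest to the right and Slc43a3 farthest to the left.

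Gstp1, a glutathione transferase that couples electrophiles to glutathione and is known as a marker of altered rat liver foci, was the most sharply separated gene of this kind. Its level was 2.28, 2.37 and 2.29 on the diol arrays and 0.91, 0.99 and 0.95 on the 1-naphthol arrays. The spread within either group was far smaller than the gap between them, and the slide 2 array sat among the other diol arrays. The difference was 1.36 ± 0.0423 (2.57-fold, adjusted p = 9.93e-09), and 1.34 ± 0.06 with the slide as a block (adjusted p = 1.99e-06). Against the shared DMSO arrays (-0.03, 0.03 and 0.08), Gstp1 stood 2.29 higher with the diol and 0.92 higher with 1-naphthol. The promoter of this gene is shown with those of Hspb1 and Sprr1a. These genes are among the 12 largest increases, and each holds more than 1 match to the motifs defined next, AP-1 sites included. The sequences are RefSeq's for assembly GRCr8, the 250 bases before the start site read 5′ to 3′ on the gene's strand, and capitals mark every match on either strand to an antioxidant response element core (TGACNNNGC, bound by NRF2), a xenobiotic response element core (GCGTG, bound by AhR), a pair of heat shock units (GAANNTTC) or an AP-1 site (TGANTCA).
Gstp1, chr1:210769706-210769955, minus strand: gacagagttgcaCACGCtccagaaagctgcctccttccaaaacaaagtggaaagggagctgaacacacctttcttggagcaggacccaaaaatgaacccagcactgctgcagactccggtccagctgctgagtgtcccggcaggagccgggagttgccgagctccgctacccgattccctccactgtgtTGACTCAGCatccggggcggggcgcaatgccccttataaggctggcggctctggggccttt
Hspb1, chr12:26432302-26432551, minus strand: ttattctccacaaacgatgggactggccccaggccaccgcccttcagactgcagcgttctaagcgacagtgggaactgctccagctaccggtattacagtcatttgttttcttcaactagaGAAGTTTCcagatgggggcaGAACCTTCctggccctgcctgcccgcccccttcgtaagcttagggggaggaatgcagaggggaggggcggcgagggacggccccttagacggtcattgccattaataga
Sprr1a, chr2:180752626-180752875, minus strand: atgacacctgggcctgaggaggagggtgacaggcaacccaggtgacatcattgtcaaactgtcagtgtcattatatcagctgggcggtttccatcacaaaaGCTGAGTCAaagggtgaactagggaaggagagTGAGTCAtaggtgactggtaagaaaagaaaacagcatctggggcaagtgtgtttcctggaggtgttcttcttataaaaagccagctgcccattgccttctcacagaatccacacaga
In Gstp1 the antioxidant core and the AP-1 letters overlap 61 bases before the start, and a xenobiotic core lies at 238. In Hspb1 heat shock units lie 129 and 109 bases before the start. In Sprr1a an antioxidant core at 149 overlaps AP-1 letters at 147, and further AP-1 letters lie at 117. Of all 33469 promoters of this length, 10.1% hold the antioxidant core, 25.9% the xenobiotic core, 7.23% the heat shock pair and 6.34% the AP-1 site. Among the 12 genes with the largest increases that passed both fits, 10 had a promoter in the table, of which 3 held the antioxidant core, 2 the xenobiotic core, 1 the heat shock pair and 3 the AP-1 site. Among the 12 largest decreases 9 had a promoter, of which 1, 4, 0 and 0 held them. These counts are small and describe letters in a window, not bound sites.

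Akr1b8, an aldo-keto reductase that reduces reactive aldehydes and ketones, showed the same order. It lay at -0.33, -0.24 and -0.34 with the diol and at -1.48, -1.49 and -1.49 with 1-naphthol, with DMSO at -2.03 to -1.98. The groups did not overlap, and the difference of 1.18 ± 0.0474 (adjusted p = 4.09e-08) was 1.15 with the block (adjusted p = 1.08e-05). Nqo1, the quinone reductase that both NRF2 and AhR are known to drive, was at 1.00, 0.90 and 1.00 with the diol and at 0.54, 0.60 and 0.58 with 1-naphthol. Both compounds held it well over its DMSO level, by 1.63 and 1.24, and the difference between them was 0.39 ± 0.0595 (adjusted p = 0.00235, and 0.0324 with the block).

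Of 39 NRF2 targets and redox genes tested, 7 were higher (17.9%, against 4.36% of all genes) and 2 lower (5.13%, against 4.8%) with the diol, and 30 did not pass. Both fits passed 2 upward and 1 downward. The median difference of the list was 0.08, against -0.02 over all genes tested. Among those that passed both fits were Nqo1 upward and Slc7a11 downward. Of the 9 called members 6 kept the call when each of the 6 arrays was left out in turn, the other 3 being Prdx6, Pgd and Gpx1, named after their values were seen. Hmox1, the heme oxygenase that cells raise under oxidative stress, was higher by 0.43 ± 0.0687 (adjusted p = 0.00338), at -0.41, -0.50 and -0.49 against -0.73, -1.04 and -0.90, but not with the slide as a block (adjusted p = 0.0747). Its differences from DMSO were 0.17 with the diol and -0.26 with 1-naphthol, which shares no slide with DMSO. On slide 2 the Hmox1 mean of 1-naphthol was 0.15 above that of naphthalene. Slc7a11, the cystine importer that supplies glutathione synthesis, read lower with the diol by -0.46 ± 0.0786 (adjusted p = 0.00496, and 0.0281 with the block) on its brighter probe, while its other probe gave a difference of 1.03, so the files give no single direction for it. Gclc, the rate-limiting enzyme of glutathione synthesis, had a difference of 0.14 (95% interval 0.03 to 0.26, adjusted p = 0.115), Srxn1, which repairs peroxiredoxins, 0.19 (0.01 to 0.36, adjusted p = 0.157) and the thioredoxin reductase Txnrd1 0.08 (-0.08 to 0.24, adjusted p = 0.519). For these 3 the intervals exclude differences as large as that of Gstp1, and failing the test does not show that the compounds act alike. With the background corrected by normexp on median signals, Gclc did pass in limma (difference 0.24, adjusted p = 0.0124).

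Among 23 glutathione transferases, 4 were higher (17.4%) and 2 lower (8.7%) with the diol. Gstp1 and Gsta2 passed both fits. Gsta2, an alpha-class enzyme abundant in hepatocytes, lay at 3.88, 4.0 and 4.09 against 3.59, 3.68 and 3.64, with no overlap, and differed by 0.36 ± 0.0714 (adjusted p = 0.0117, and 0.0381 with the block). The other called members, Mgst2, Gsta3, Gsta6 and Gstm4, named after their values were seen, differed by 0.17, 0.17, -0.14 and -0.16 and lost the call without single arrays (highest adjusted p 0.098 to 0.147). Of 23 aldo-keto and carbonyl reductases and related oxidases, 4 were higher (17.4%) and 3 lower (13%). Akr1b8 was alone in passing both fits, and Akr7a3, which reduces aflatoxin dialdehyde, was higher by 0.30 ± 0.0446 (adjusted p = 0.00223, and 0.0743 with the block). The xanthine dehydrogenase Xdh was higher by 0.42 and the aldehyde oxidase Aox1 by 0.18, whereas Akr1c1, Akr1c12 and Nqo2 were lower by differences of -0.21, -0.20 and -0.17. The last 5 were named after their values were seen, and of them Xdh kept its call whichever array was left out, though not with the block (adjusted p = 0.0555).

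Conjugation and export followed no common direction. Of 26 glucuronidation and sulfation genes 3 were higher (11.5%, 2 in both fits) and 1 lower (3.85%, 0 in both fits). Ugt2b7, a glucuronosyltransferase, was dim, at -4.93, -5.39 and -4.98 with the diol against -5.98, -6.38 and -6.69, and differed by 1.25 ± 0.164 (adjusted p = 0.00103, and 0.0186 with the block). Slc35d1, which carries UDP-glucuronic acid into the endoplasmic reticulum (ER) where these enzymes work, differed by 0.40 ± 0.0594 (adjusted p = 0.0023, and 0.0438 with the block). Ugdh, which makes UDP-glucuronic acid, was higher by 0.30 and the sulfotransferase Sult1a1 lower by a difference of -0.15. Both were named after their values were seen, and each lost its call without single arrays (highest adjusted p 0.103 and 0.0897). Of 16 ABC efflux transporters, Abcc3, which exports glucuronides across the basolateral membrane, was higher by 0.39 ± 0.0746 (adjusted p = 0.00852, and 0.154 with the block). Abcb11, the bile salt export pump, was lower by a difference of -0.33 ± 0.0389 (adjusted p = 0.000484, and 0.0215 with the block), at 2.69, 2.78 and 2.77 against 3.05, 3.10 and 3.10. DMSO lay between the groups for Abcb11, with differences from DMSO of -0.22 for the diol and 0.11 for 1-naphthol. Abcc3 and Abcb11 were the 1 higher and the 1 lower of the 16 transporters (6.25% each, against 4.36% and 4.8% of all genes).

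The AhR targets did not move together. Cyp1a1 stood at 2.08, 1.75 and 2.09 with the diol and at 2.30, 2.02 and 2.09 with 1-naphthol, against -0.39, -0.16 and -0.20 in DMSO. The diol and 1-naphthol values overlapped, with a difference of -0.16 (95% interval -0.43 to 0.10, adjusted p = 0.414). Aldh3a1, an aldehyde dehydrogenase that is nearly silent in untreated liver, lay at -3.85, -3.89 and -4.16 with the diol and at -3.23, -3.33 and -3.34 with 1-naphthol. Its 3 diol values were all lower, and the difference of -0.67 ± 0.105 (adjusted p = 0.00292) was -0.86 with the block (adjusted p = 0.0109). In DMSO it was not well above background (-7.58 to -7.51), so it stood at least 12-fold over DMSO with the diol and at least 19-fold with 1-naphthol. Cyp1a2, a P450 that activates aromatic amines, was lower by a difference of -0.31 ± 0.0631 (adjusted p = 0.0126). That call ended with the slide as a block (adjusted p = 0.223) and without diol replicate 1 (0.0517) or 1-naphthol replicate 1 (0.0528). Ahrr, the receptor's repressor, was dim and scattered, with a difference of 0.21 (95% interval -0.64 to 1.07, adjusted p = 0.769). Of the 10 AhR targets tested, Nqo1 was thus the 1 higher gene and Aldh3a1 and Cyp1a2 the 2 lower ones (10% and 20%, against 4.36% and 4.8% of all genes), and Nqo1 and Aldh3a1 passed both fits.

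**Figure D2:**
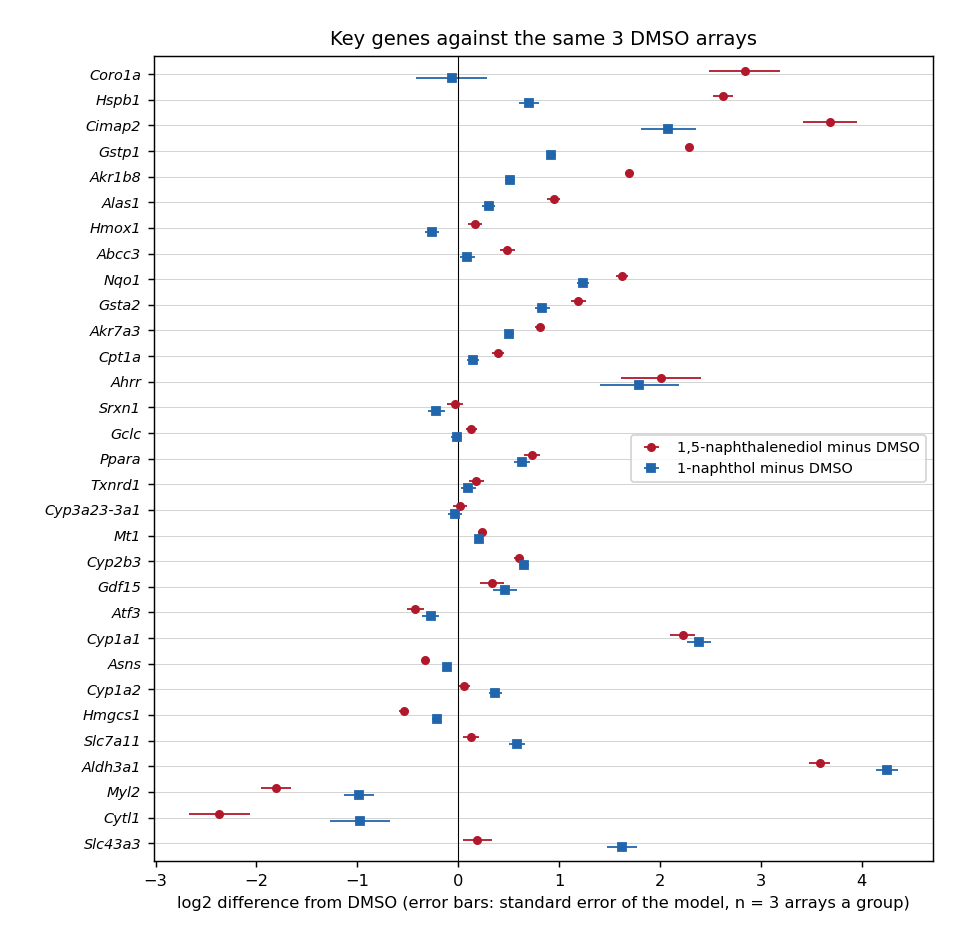
Log2 difference from DMSO of 31 key genes tested, for the diol (red circles) and 1-naphthol (blue squares), with standard errors of the model and 3 arrays per group. Both compounds share the same 3 DMSO arrays, none of which shares a slide with 1-naphthol; the gap between the symbols is the difference reported in the text, widest for Coro1a, Hspb1 and Cimap2 above and for Slc43a3 and Cytl1 below. For Coro1a, Cimap2, Ahrr and Aldh3a1 no DMSO array was well above background, and the measured difference is plotted.

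Targets of the nuclear receptors CAR and PXR gave 3 higher genes among 33 (9.09%, against 4.36% of all genes) and 0 lower. Alas1, the rate-limiting enzyme of heme synthesis, was the 1 that passed both fits. It lay at 4.69, 4.81 and 4.62 with the diol and at 4.05, 4.12 and 4.01 with 1-naphthol, a difference of 0.65 ± 0.0653 (adjusted p = 0.000198, and 0.0123 with the block). It was 0.95 over DMSO with the diol and 0.30 over it with 1-naphthol. The P450 genes Cyp3a2 and Cyp3a9, named after their values were seen, were higher by 0.60 and 0.33 and did not pass with the block (adjusted p = 0.0663 and 0.0634). Cyp3a9 also lost its call without any 1 of the 6 arrays (highest adjusted p 0.118). Cyp2b3 and Cyp3a23-3a1 had differences of -0.05 (95% interval -0.16 to 0.05) and 0.05 (-0.10 to 0.20), with adjusted p = 0.504 and 0.703. In the list of 23 metal and heme genes (3 higher, 13%) Alas1 was joined by the zinc importer Slc39a10 (0.44) and the transferrin receptor Tfrc (0.24), named after their values were seen, whose calls ended without single arrays. The metallothionein Mt1 had a difference of 0.03 (95% interval -0.05 to 0.12, adjusted p = 0.639).

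Chaperone genes were higher with the diol more often than lower. Hspb1, a small heat shock protein that holds unfolded proteins and stabilises actin, lay at 2.76, 2.43 and 2.38 with the diol and at 0.74, 0.64 and 0.44 with 1-naphthol. The groups did not overlap, and diol replicate 3, on the slide of 1-naphthol, was the lowest of the diol arrays. The difference of 1.92 ± 0.0996 (3.77-fold, adjusted p = 5.5e-07) was 1.77 with the block (adjusted p = 8e-05). DMSO lay at -0.13 to -0.08, so Hspb1 differed from DMSO by 2.62 with the diol and by 0.71 with 1-naphthol. Hsph1, an HSP110 nucleotide exchange factor, differed by 0.47 ± 0.0757 (adjusted p = 0.00355, and 0.0455 with the block), and Cacybp, a component of a ubiquitin ligase complex, by 0.40 ± 0.0518 (adjusted p = 0.00101, and 0.0348 with the block). Of the 27 heat shock genes tested, 9 were higher (33.3%, against 4.36% of all genes) and 1 lower (3.7%, against 4.8%), with a median difference of 0.14 and 22 of 27 members above 0. Both fits passed 3 upward and 0 downward. Hspb1, Hsph1, Cacybp and Stip1 kept the call whichever array was left out, and the other 6 did not (Stip1 was named after its values were seen, and did not pass with the block, adjusted p = 0.0993). The constitutive chaperone Hspa8, the 1 lower member, named after its value was seen, had a difference of -0.12 (adjusted p = 0.0377, and 0.154 with the block).

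Of 35 proteasome subunit genes 10 were higher (28.6%, against 4.36% of all genes) and 0 lower, with a median difference of 0.10 (21 and 0 at an unadjusted p under 0.05 in limma). Of the members 29 had a positive difference, against 8935 of all 19803 genes. On diol replicate 3, a single array, 34 did, against 9169 of all genes. Psmd14, the deubiquitinase of the lid, lay at 1.39, 1.28 and 1.30 with the diol and at 0.91, 0.91 and 0.91 with 1-naphthol, a difference of 0.41 ± 0.053 (adjusted p = 0.000948, and 0.0303 with the block). Psmb3, Psmd12 and Psma5, subunits of the core, the lid and the core, differed by 0.31, 0.22 and 0.22 and also passed both fits. These 4 kept the call without any 1 array and the other 6 did not. The differences were small: DMSO lay between the compounds for Psmd14 (differences from DMSO 0.27 and -0.14), Psmd12 (0.17 and -0.05) and Psma5 (0.15 and -0.07). Of the 23 ER chaperones and unfolded protein response genes 0 passed in limma, with differences from -0.34 to 0.19 and a median of -0.05. At an unadjusted p under 0.05 in limma 1 was higher and 1 lower, against 11.8% and 16.1% of all genes.

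**Figure D3:**
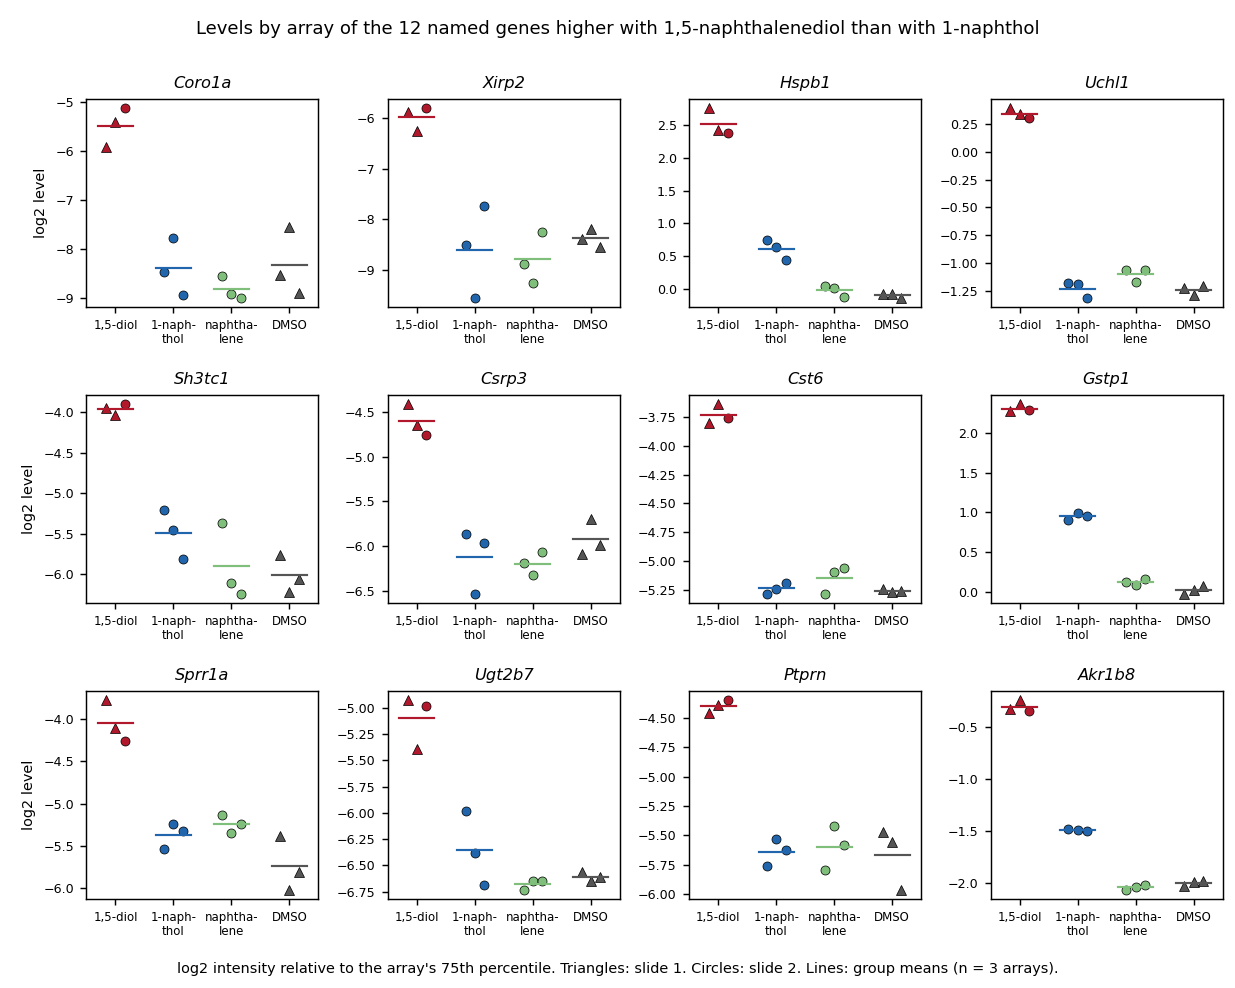
Level of the 12 genes with the largest increases that passed both fits, in log2 intensity relative to the array's 75th percentile, for each array of DMSO, the diol, 1-naphthol and naphthalene (triangles slide 1, circles slide 2, lines the group means). In each panel the 3 diol points, including the 1 on slide 2, lie above the 3 points of 1-naphthol.

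The 12 largest increases that passed both fits also held genes of the cytoskeleton, of muscle and of epithelia. Coro1a, an actin-binding coronin best known in leukocytes, lay at -5.92, -5.42 and -5.13 with the diol, while its 3 values of 1-naphthol were not well above background (-8.48, -7.78 and -8.93). It was at least 6.10-fold higher (measured difference 2.90 ± 0.348, adjusted p = 0.000551, and 0.00932 with the block), a bound that gives each dim array at least the lowest intensity that still counted as well above background. The 3 macrophage and 2 lymphocyte markers tested did not pass in either direction. Diol replicate 3 had the highest summed lymphocyte level of the 6 arrays (0.06913) and a diol array of slide 1 the lowest (0.0529). The summed macrophage level was 0.263 to 0.2696 with the diol and 0.2683 to 0.3044 with 1-naphthol. The part of such cells in the Coro1a result was not tested. Xirp2, an actin-binding protein of striated muscle, was likewise measurable with the diol alone, at -5.87, -6.26 and -5.80, and at least 4.67-fold higher (measured difference 2.62 ± 0.381, adjusted p = 0.00189, 0.0311 with the block, and 0.0503 when the 6 arrays were fitted alone). Csrp3, a LIM protein of striated muscle, stood at -4.42, -4.64 and -4.76 against -5.86, -6.53 and -5.96 and differed by 1.51 ± 0.199 (adjusted p = 0.00106, and 0.039 with the block). All 3 probes were dim. In DMSO, too, Coro1a and Xirp2 were not well above background, and the Csrp3 level of 1-naphthol differed from that of DMSO by -0.19. Among the diol, 1-naphthol and DMSO, Coro1a and Xirp2 thus met the filter on dim signal through the diol alone. That is the group in which they were high, and their p-values do not allow for this selection.

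Uchl1, a ubiquitin hydrolase typical of neurons, was brighter and very even, at 0.39, 0.34 and 0.30 with the diol and at -1.19, -1.19 and -1.31 with 1-naphthol. The difference was 1.58 ± 0.0553 (adjusted p = 1.07e-08) and 1.54 with the block (adjusted p = 3.43e-06), and 1-naphthol stood 0.01 from DMSO. Cst6, a secreted cysteine protease inhibitor of epithelia, lay at -3.80, -3.64 and -3.76 against -5.28, -5.24 and -5.19, a difference of 1.5 ± 0.0685 (adjusted p = 1.33e-07), with 1-naphthol 0.02 from DMSO. For both genes the 1-naphthol level and the DMSO level were thus nearly the same. Sprr1a, a cornified envelope precursor that is also raised in injured cells, differed by 1.32 ± 0.156, from -3.78, -4.10 and -4.26 to -5.53, -5.24 and -5.33 (adjusted p = 0.000517, and 0.0266 with the block). Ptprn, a phosphatase-like protein of secretory granules, differed by 1.24 ± 0.138 and Sh3tc1, an SH3 domain protein, by 1.53 ± 0.215 (adjusted p = 0.000372 and 0.00158, and 0.0123 and 0.0311 with the block). Among these 12 genes Coro1a, Xirp2, Sh3tc1, Csrp3, Cst6, Sprr1a, Ugt2b7 and Ptprn shrank to differences of 0.50 to 0.91 when the background was corrected by normexp on median signals with an offset of 50, which lifts dim spots, and all 8 kept the call.

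In the list of 31 cytoskeleton and muscle-type genes, part of which was written with these results in view, 8 were higher (25.8%) and 4 lower (12.9%), and 3 and 0 passed both fits. Tubulins made up much of the first group. Tubb4b lay at 6.21, 6.22 and 6.23 with the diol and at 5.94, 5.84 and 5.90 with 1-naphthol, a difference of 0.33 ± 0.0378 (adjusted p = 0.000473, and 0.0126 with the block). Tuba1b differed by 0.30 ± 0.0487 (adjusted p = 0.00331, and 0.00713 with the block). Tuba1c and Tubb6 were higher by 0.31 and 0.29 without passing the block (adjusted p = 0.058 and 0.125). Tubulin genes are alike in sequence, so probes may share signal between copies. Cimap2, a ciliary microtubule-associated protein, lay at -5.07, -4.66 and -5.14 against -6.50, -7.15 and -6.03 and differed by 1.6 ± 0.271 (adjusted p = 0.00444, and 0.105 with the block), or by 0.53 with normexp, with 2 of 3 arrays of 1-naphthol well above background. The cardiac myosin light chain Myl2, at -6.54, -6.20 and -6.43 against -5.63, -5.85 and -5.24, was lower by a difference of -0.82 ± 0.149 (adjusted p = 0.0069, 0.0808 with the block, and 0.0822 at a difference of -0.23 with normexp), the opposite direction to Xirp2 and Csrp3. Mybpc3, Myl4 and Acta1 were the other lower members, named after their values were seen, and lost the call without single arrays. For Cimap2, with 0 DMSO arrays well above background, neither DMSO nor 1-naphthol met the filter on dim signal. Its p-values do not allow for a selection through groups in which it was high.

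Of the 25 gene lists, that of the cell cycle and replication had the highest share of higher members. Of 29 tested, 13 were higher (44.8%, against 4.36% of all genes) and 0 lower (16 and 1 at an unadjusted p under 0.05 in limma), with a median difference of 0.19. With the slide as a block the calls of 9 of the 13 ended, and 4 passed both fits. Cdk1, the mitotic kinase, lay at -1.89, -1.84 and -1.91 with the diol and at -2.37, -2.51 and -2.47 with 1-naphthol, a difference of 0.57 ± 0.0731 (adjusted p = 0.000948, and 0.0301 with the block). Ccne1, the cyclin that starts S phase, differed by 0.41 ± 0.0524 (adjusted p = 0.000921, and 0.0324 with the block). Aurka, a spindle kinase, differed by 0.26 ± 0.0518 (adjusted p = 0.0112, and 0.0385 with the block). Mcm3, a subunit of the replicative helicase, differed by 0.40 on its brighter probe and by -0.07 on its other, and its call ended with the mean of both (adjusted p = 0.373). Cdk1, Ccne1, Mcm3 and Aurka, the 4 that passed both fits, kept the call whichever array was left out. So did Ccne2, Mcm6 and Pcna, named after their values were seen, which lost it with the block (adjusted p = 0.0516, 0.101 and 0.0605). 1-Naphthol differed from DMSO by -0.10 for Cdk1, -0.03 for Ccne1 and -0.21 for Aurka, the diol by 0.47, 0.38 and 0.05. Whether proliferating cells were more frequent or held more of these transcripts per cell cannot be told apart in bulk RNA. Of 24 immediate early genes, Socs3, Dusp5 and Fosl1 were higher (12.5%) and 0 were lower. At an unadjusted p under 0.05 in limma 7 were higher and 5 lower, against 11.8% and 16.1% of all genes. Socs3, a cytokine signalling inhibitor, passed both fits with a difference of 0.52 ± 0.0457 (adjusted p = 9.61e-05, and 0.00561 with the block). Its other probe gave 0.04, and the mean of both did not pass (adjusted p = 0.0568). Of 19 p53 targets the kinase Plk3 was the 1 higher gene (0.38, adjusted p = 0.0236, and 0.212 with the block), and 0 were lower (2 and 1 at an unadjusted p under 0.05 in limma). The 1 higher p53 target is 5.26% of those tested, near the 4.36% of all genes. Plk3, Dusp5 and Fosl1 were named after their values were seen.

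Called genes of lipid synthesis were lower with the diol, and most members did not pass. Of 25 genes of cholesterol synthesis and uptake 10 were lower (40%, against 4.8% of all genes) and 0 higher (12 and 1 at an unadjusted p under 0.05 in limma), with a median difference of -0.13 and 7 members above 0. With the block the calls of 7 of the 10 ended, and 3 passed both fits. Fdps, which makes farnesyl diphosphate, lay at 4.06, 4.06 and 4.0 with the diol and at 4.35, 4.32 and 4.40 with 1-naphthol, a difference of -0.32 ± 0.0405 (adjusted p = 0.000882, and 0.0122 with the block). Hmgcs1, at the entry of the pathway, lay at 3.59, 3.67 and 3.55 against 3.91, 3.88 and 3.99 and differed by -0.32 ± 0.0485 (adjusted p = 0.00235, and 0.0216 with the block). Idi1, the isomerase between them, differed by -0.40 ± 0.0551 (adjusted p = 0.00132, and 0.044 with the block). Both compounds lay under DMSO for Fdps (-0.60 and -0.28) and Hmgcs1 (-0.54 and -0.22), while for Idi1 1-naphthol stood close to DMSO (-0.44 and -0.04). With Dhcr7, named after its values were seen, these were the 4 of 10 whose call held without any 1 array, and Dhcr7 lost it with the block (adjusted p = 0.0502).

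Of 26 fatty acid and triglyceride genes 7 were lower (26.9%, 3 of them in both fits) and 0 higher, with a median of -0.10 and 10 members above 0. At an unadjusted p under 0.05 in limma 10 were lower and 4 higher, against 16.1% and 11.8% of all genes. Thrsp, a regulator of lipogenesis that follows carbohydrate and thyroid hormone, lay at 0.83, 1.06 and 0.65 against 1.32, 1.43 and 1.40, a difference of -0.54 ± 0.0888 (adjusted p = 0.00379, 0.00608 with the block, and 0.065 when the 6 arrays were fitted alone). The fatty acid synthase Fasn differed by -0.41 ± 0.0825 (adjusted p = 0.0124, and 0.0423 with the block), a call that ended without 1-naphthol replicate 2 (0.0522). Insig2, a brake on sterol synthesis, differed by -0.21 ± 0.0485 (adjusted p = 0.0223, and 0.0292 with the block) and lost the call without 1-naphthol replicate 1 (0.0761) or 3 (0.0774). Of the 7, Thrsp alone held without any 1 array. Gckr, the regulator of glucokinase, was lower with a difference of -0.43 ± 0.0395, at 3.07, 3.20 and 3.14 against 3.55, 3.56 and 3.58 (adjusted p = 0.000117, and 0.00557 with the block). It was the 1 member of 34 glycolysis, gluconeogenesis and hypoxia genes to pass both fits. Without the block 3 members were higher (8.82%, against 4.36% of all genes) and 3 lower (8.82%, against 4.8%). The higher ones were Ndrg1, Adm and Bnip3, and the lower ones Gckr, Pklr and Pfkfb1. Apart from Gckr, these 5 genes were named after their values were seen, and their calls ended without single arrays. Of 39 PPAR-alpha targets and fatty acid oxidation genes 5 were lower (12.8%, 1 of them in both fits) and 1 higher (2.56%). The lower ones were Fgf21 and, named after their values were seen and lost without single arrays, Cpt1b, Cyp4a2, Hadha and Ech1. Fgf21, a fasting hormone made by liver, lay at -1.33, -1.24 and -1.35 against -0.77, -0.79 and -0.84 and differed by -0.50 ± 0.0619 (adjusted p = 0.000669, and 0.0146 with the block). The 1 higher member, Cpt1a, which brings fatty acids into mitochondria, differed by 0.25 ± 0.06 (adjusted p = 0.0264, and 0.342 with the block), and its call ended without diol replicate 1 (0.0936) or 2 (0.0868) or any of the 3 1-naphthol arrays (0.065 to 0.0842). Ppara itself had a difference of 0.10 (95% interval -0.07 to 0.26, adjusted p = 0.437).

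Among 34 genes of the ATF4 and amino acid response 8 were lower (23.5%, 3 of them in both fits) and 1 higher (2.94%), with a median of -0.10. Fgf21 and Slc7a11 belong to this list too. Asns, the asparagine synthetase, lay at 2.41, 2.37 and 2.41 with the diol and at 2.63, 2.56 and 2.66 with 1-naphthol, a difference of -0.22 ± 0.0335 (adjusted p = 0.00261, and 0.0534 with the block). Atf5, a stress transcription factor, differed by -0.26 ± 0.0649 (adjusted p = 0.0284, and 0.025 with the block). Its call ended without diol replicate 2 (0.0583) or any of the 3 1-naphthol arrays (0.0639 to 0.0914), and with the mean of its probes (0.0882). The 1 higher gene was Slc3a2, the heavy chain that pairs with amino acid transporters, at 2.16, 2.04 and 2.07 against 1.71, 1.65 and 1.64, a difference of 0.43 ± 0.0506 (adjusted p = 0.000529, and 0.022 with the block). DMSO lay between the compounds for Slc3a2, with differences from DMSO of 0.14 and -0.29. Atf3 and Gdf15, stress genes often raised with this response, had differences of -0.15 (95% interval -0.33 to 0.03) and -0.13 (-0.39 to 0.13), with adjusted p = 0.254 and 0.515.

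**Figure D4:**
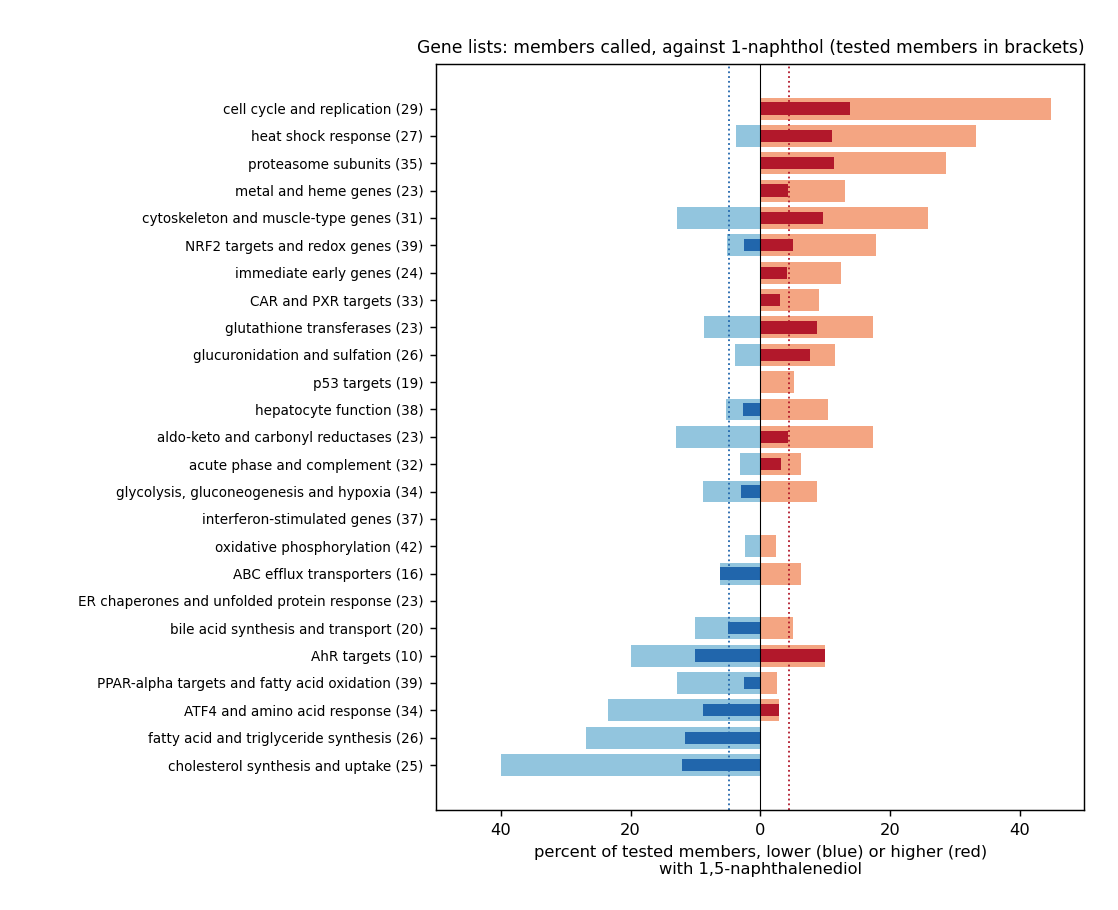
Share of the tested members of each gene list that were higher (right, red) or lower (left, blue) with the diol than with 1-naphthol, in percent; pale bars count members passing without the slide block and dark bars those passing without and with it. Dotted lines mark the shares over all genes tested, 4.36% higher and 4.8% lower; cell cycle, heat shock and proteasome genes extend farthest to the right and cholesterol and fatty acid synthesis genes farthest to the left.

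The single gene lower by 2-fold or more in both fits was Slc43a3, a nucleobase transporter. It lay at -4.67, -4.52 and -4.91 with the diol and at -3.22, -3.35 and -3.23 with 1-naphthol, and its naphthalene values were -4.68, -5.02 and -5.25. It was thus the 1-naphthol arrays that stood out, on the slide they shared with naphthalene and diol replicate 3. The difference was -1.43 ± 0.145 (adjusted p = 0.000202) and -1.64 with the block (adjusted p = 0.00324), and the differences from DMSO were 0.19 with the diol and 1.62 with 1-naphthol. The next largest decreases were smaller. Birc7, an inhibitor of apoptosis, differed by -0.70 ± 0.0861 (-5.89, -5.96 and -5.69 against -4.99, -5.27 and -5.19), and both compounds lay under DMSO (-1.30 and -0.60). Hrk, a BH3 activator of apoptosis, differed by -0.60 ± 0.0652 (-1.26, -1.08 and -1.23 against -0.62, -0.51 and -0.63). The naphthalene arrays, on the slide of 1-naphthol, read -0.70 to -0.56 for Hrk and the DMSO arrays -1.15 to -1.02, while diol replicate 3 kept the low level on slide 2. Lrmda, the RNase-family gene Zc3h12c, the atypical MAP kinase Mapk4 and the kelch gene Klhdc8a differed by -0.59, -0.58, -0.53 and -0.65 with adjusted p from 0.000202 to 0.00264. Each had no overlap between the groups, which held for 1795 of the 1814 genes that passed. With the block Birc7, Hrk and these 4 had adjusted p from 0.00737 to 0.0347.

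Fbxo32, the muscle ubiquitin ligase atrogin-1, differed by -0.67 ± 0.142 (adjusted p = 0.0155, and 0.0239 with the block), and its call ended without diol replicate 2 (0.0521) or 1-naphthol replicate 3 (0.0699), with the 6 arrays fitted alone (0.0947) and with no filter on dim probes (0.0507). Kctd15, a repressor of neural crest formation, differed by -0.53 ± 0.149 (adjusted p = 0.0467, and 0.0215 with the block). Its call held without diol replicate 1 and ended without any other of the 6 arrays (0.079 to 0.135), with the 6 arrays fitted alone (0.136), with no filter on dim probes (0.126) and with the replicate number as a block (0.0597). Fam107a, an actin-associated stress gene, differed by -0.53 ± 0.0796 (adjusted p = 0.00235, and 0.0304 with the block). With normexp on median signals Kctd15 and Fam107a did not pass (differences -0.12 and -0.14, adjusted p = 0.331 and 0.113), and Slc43a3, Birc7, Fbxo32 and Klhdc8a were called at differences of -0.91, -0.24, -0.40 and -0.42. The cytokine-like gene Cytl1 was well above background on 1 of 3 arrays of 1-naphthol and on none of the diol. It was at least 2.03-fold lower with the diol (measured difference -1.39 ± 0.298, adjusted p = 0.0164), and the call ended with the block (0.223), without diol replicate 2 (0.0638) or 1-naphthol replicate 1 (0.0636), and with normexp (difference -0.18, adjusted p = 0.1).

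**Figure D5:**
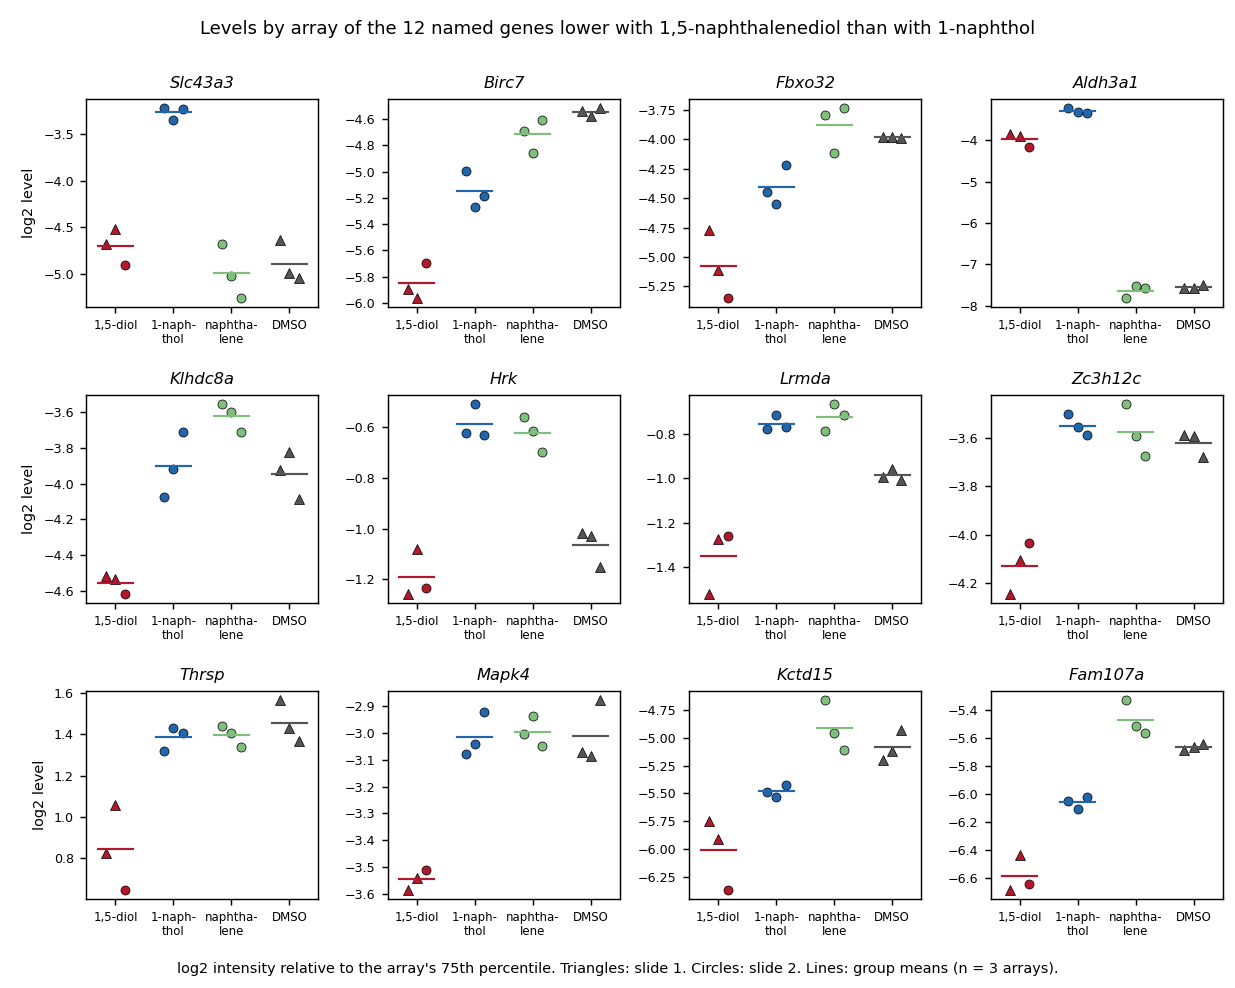
Level of the 12 genes with the largest decreases that passed both fits, in log2 intensity relative to the array's 75th percentile, for each array of DMSO, the diol, 1-naphthol and naphthalene (triangles slide 1, circles slide 2, lines the group means). In each panel the 3 diol points lie below the 3 points of 1-naphthol, and for Slc43a3 the points of 1-naphthol stand above all others.

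Of 38 genes of hepatocyte function 4 were higher (10.5%, against 4.36% of all genes) and 2 lower (5.26%, against 4.8%), and the argininosuccinate lyase Asl of the urea cycle was the 1 to pass both fits. It lay at 3.92, 3.93 and 3.93 with the diol and at 4.25, 4.17 and 4.26 with 1-naphthol, a difference of -0.30 ± 0.0364 (adjusted p = 0.000627, and 0.0216 with the block). The tyrosine aminotransferase Tat and the histidine ammonia-lyase Hal, named after their values were seen, were higher by 0.57 and 0.27 but not with the block (adjusted p = 0.0739 and 0.0933). Cps1 and Tdo2 were higher too and lost the call without single arrays. Of 32 acute phase and complement genes 2 were higher (Socs3 and Fgb, 6.25%) and 1 lower (Itih3, 3.12%). Of 42 oxidative phosphorylation genes 1 was higher (Cycs, 2.38%) and 1 lower (2.38%), and of 20 bile acid genes 1 was higher (Abcc3, 5%) and 2 were lower (Abcb11 and Cyp27a1, 10%). Most of these shares lie near the 4.36% and 4.8% of all genes. Except for Socs3, Abcc3 and Abcb11 these were named after their values were seen, and their calls ended without single arrays. Of 37 interferon-stimulated genes 0 passed in limma (0 higher and 1 lower at an unadjusted p under 0.05), with a median difference of 0.10. On diol replicate 3 alone the median of that list against 1-naphthol was 0.40, so that array stood apart from the other diol arrays in these genes.

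For the 176 genes higher with the diol in both fits, the DMSO mean lay between the compounds for 89, under both for 81 and over both for 6. For the 143 lower genes it lay between them for 54, over both for 79 and under both for 10. These counts use means without the block, and since all DMSO arrays lay on slide 1 and all 1-naphthol arrays on slide 2, the compound and the slide cannot be told apart in them. Gstp1, Akr1b8, Nqo1 and Hspb1 are of the kind in which both compounds stood over DMSO and the diol farther, and Uchl1, Cst6 and Coro1a of the kind in which the 1-naphthol and DMSO levels lay together. Of 35 key genes, chosen with earlier results of these data known, 31 were tested. Of these 12 were higher (against 4.36% of all genes), 8 lower (against 4.8%) and 11 not past the threshold. Because of how the genes were chosen, these counts are no independent test. Gclm, Cyp1b1, Tiparp and Dnajb1 were not analysed here.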

How the data were processed

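RNA of 15 hepatocyte samples was hybridised to one-colour Agilent rat arrays. The deposited files hold 1 intensity per spot, which the authors made with Feature Extraction 10.7.1.1, background-subtracted and detrended but not normalized between arrays, per the file headers. From these, log2 intensities were computed here, and each array's 75th percentile over gene spots was subtracted. Control spots and spots marked as outliers were left out (250 to 354 per array). Probes well above background on all 3 arrays of any group were kept (23562), the brightest probe stood for a gene, and symbols came from the RefSeq table of GRCr8 by transcript accession (10503 of 19803 genes, the rest under accessions). The file headers name build rn4, so no probe coordinates are given. Differences were tested with limma 3.58.1 in R 4.3.3 over all 15 arrays with 5 group means, Benjamini-Hochberg adjusted over all genes, and checked on simulated data. The simulated arrays had independent noise and no slide effect, so that check does not cover the effect of the slide. Slide and scan coincide.

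The genes named were the 12 largest changes in each direction past both fits, 35 key genes, and up to 4 members per list past both fits. The comparison, the lists and the key genes were chosen with earlier results of these data known. A few genes of the lists are counted but not reported by name here. Alternatives were another percentile base, quantile normalization, other filters, the mean of probes, slide and replicate blocks, and leaving out each array.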

Additional observations from a re-analysis of the deposited data

How the results depend on the processing

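The main counts were 863 genes higher and 951 lower with the diol. They were 190 and 181 with the slide as a fixed block (319 shared), 483 and 414 with it as a random block (correlation 0.187), and 13 and 2 on slide 2 alone, where 1 diol array stands against 3. They were 272 and 175 with the 6 arrays alone, 339 and 233 with no filter on dim probes (38995 genes tested), and 1010 and 1171 with normexp on median signals, which was added after the data were seen because the files hold no mean signal. Leaving out single arrays gave 407 to 1254 higher and 266 to 2155 lower genes. The highest counts came without diol replicate 3, where the diol and 1-naphthol share no slide. The replicate numbers do not pair the arrays (correlations of deviations 0.02, -0.043 and -0.067, and 0 of 3 best with their own number), and the replicate block gave 746 and 781. Other percentile, quantile, filter and probe choices stayed within 1.5 times. The values under alternatives covered 186 genes: named ones, called list members and those under other observations below. Of these values 2285 kept direction and side of the threshold, 862 lost the call, 1 gained it (Gclc with normexp) and 8 turned sign. The losses were uneven. Of the 186 genes 97 lost the call with the 6 arrays fitted alone and 78 with no filter on dim probes. With another percentile base 0 lost it, and with quantile normalization 2 did. Many of the genes were chosen for passing with the slide as a block. Those under other observations were also chosen for keeping the call with each array left out. For genes so chosen these outcomes were fixed in advance, and the count of values kept includes them. Turned were, with the slide as a block and on slide 2 alone, Cyp2b3 (0.00135), Cyp3a23-3a1 (-0.00832) and Ppara (-0.0548), with the mean of probes Slc7a11 (0.289), and without diol replicate 2 Mt1 (-0.000686; -0.000686 to 0.0704 over single arrays left out). The causes of these shifts were not tested. Dim probes limit the folds of Coro1a, Xirp2 and Cytl1 to bounds.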

Other observations

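Genes that belong to no list of the report also differed between 1,5-naphthalenediol and 1-naphthol. All 26 named here were chosen after their values were seen, passed limma with and without the slide as a block, kept the call whichever of the 6 arrays was left out, and were well above background on all 6 arrays. Levels are log2 intensities relative to the array's 75th percentile, and differences are the diol minus 1-naphthol. Il1rl1, the receptor of interleukin-33, lay at -0.03, 0.04 and 0.16 with the diol, at -1.01, -1.19 and -1.17 with 1-naphthol and at -1.57, -1.35 and -1.48 in DMSO. Its difference was 1.18 ± 0.163 (adjusted p = 0.0014, and 0.0237 with the block). Gjb5, a gap junction connexin of epithelia, lay at -3.6, -3.68 and -3.63 against -4.76, -4.92 and -4.59 and differed by 1.13 ± 0.0821 (adjusted p = 1.95e-05, and 0.00207 with the block). For Enpep, the aminopeptidase that cleaves angiotensin, the difference was 0.75 ± 0.0661, and both compounds stood above DMSO (by 1.15 and 0.39). Procr, the endothelial protein C receptor, and the carbonic anhydrase Car2 differed by 0.63 and 0.61. Gprc5a, an orphan receptor, differed by 0.87 ± 0.0924 and Cd44, the hyaluronan receptor, by 0.53 ± 0.0931. These 2 differed from DMSO more with 1-naphthol, by -0.64 and -0.44, than with the diol, by 0.23 and 0.09. Among proteins inside the cell, Pfn2, a profilin that binds actin monomers, lay at -1.93, -1.89 and -1.83 against -2.96, -2.91 and -2.95, and DMSO at -3.03, -3.06 and -2.94. Its 3 probes gave differences of 1.06 to 1.19 (adjusted p = 9.73e-07, and 7e-05 with the block). Sdcbp2, Nrip3 and the secretory GTPase Rab3d differed by 1.02, 0.80 and 0.76.

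Spc25, a kinetochore subunit, lay at -2.38, -2.27 and -2.20 with the diol against -2.66, -2.77 and -2.73 and differed by 0.44 ± 0.0659 (adjusted p = 0.00235, and 0.0187 with the block). Kntc1, Knstrn and Ckap2, which act at kinetochores and on the spindle, differed by 0.46, 0.43 and 0.59. Knstrn stood 0.03 from DMSO with the diol and -0.40 with 1-naphthol. The acyl-CoA thioesterase Acot7 differed by 0.41 ± 0.0333, and Usp14, a deubiquitinase of the proteasome, by 0.44 ± 0.0489. Ubb, a polyubiquitin gene, went the other way, at 6.01, 6.02 and 6.03 against 6.37, 6.36 and 6.37, a difference of -0.34 ± 0.0356 (adjusted p = 0.00021, and 0.00913 with the block). Of 2 clock repressors, Cry1 was higher by 0.56 ± 0.0517 and Nr1d2 was lower, with a difference of -0.36 ± 0.0436 (adjusted p = 0.000117 and 0.000567).

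Of the lower genes, Hao2, a peroxisomal hydroxy acid oxidase, lay at 0.07, 0.09 and 0.13 with the diol, at 0.59, 0.51 and 0.56 with 1-naphthol and at 0.98, 0.89 and 0.94 in DMSO. Its difference was -0.46 ± 0.0389 (adjusted p = 6.91e-05, and 0.00427 with the block). The fructose transporter Slc2a5, the glycogen-targeting phosphatase subunit Ppp1r3b and the kynureninase Kynu differed by -0.40, -0.35 and -0.36. Igfbp4, which binds insulin-like growth factors, lay at 2.23, 2.31 and 2.20 against 2.65, 2.73 and 2.70, and both compounds stood above DMSO (by 0.27 and 0.71). So did naphthalene and 2,7-naphthalenediol, with means of 2.55 and 2.47 against 1.98 in DMSO. Bcl2l11, the BH3 protein Bim, differed by -0.40 ± 0.0365 on the probe used (adjusted p = 0.000117, and 0.00521 with the block). Its 2 probes disagreed, with differences of -0.40 and 0.16, and their mean did not pass (-0.12, adjusted p = 0.349), so its direction depends on the probe. With the 6 arrays fitted alone, Ckap2, Slc2a5 and Ppp1r3b did not pass either (adjusted p = 0.0645, 0.0544 and 0.0527).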
